A study of Homo sapiens with 6 samples.

Results

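A list of 10 genes that write, oxidise, read or repair modified cytosine was examined for chromatin binding in THP-1 cells, an established human acute myeloid leukaemia line with monocytic features. The genes, out of 20037 protein-coding genes, were TET1, TET2, TET3, DNMT1, DNMT3A, DNMT3B, TDG, MBD4, HMCES and CXXC5. Every peak lying in a gene of the list, or with any base within 50000 bp of it, was taken. Of 3606 deposited peaks, 6 met this rule.

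Chromatin immunoprecipitation with sequencing was done for EGR1, a zinc-finger transcription factor, and for TET2. Cells had been exposed for 48 hours to DMSO, the solvent control, or to OPA1, a compound known here by the submitters' name alone. Each of the 4 ChIP groups and each of the 2 input groups had 1 library, so no test between factors or treatments was possible and every value below describes these libraries. The ChIP libraries held 19779007 to 19900311 filtered tags, and the lists held 513 peaks (EGR1, DMSO), 515 (EGR1, OPA1), 891 (TET2, DMSO) and 1687 (TET2, OPA1). The weakest peaks of each list rested on 8 tags, so a gene without a listed peak is not shown to be unbound. Peak lists carry no RNA level, so the expression of these genes and the markers of the cell line could not be checked.

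DNA methyltransferases place a methyl group on cytosine, mostly where a guanine follows (CpG). TET dioxygenases oxidise that methyl group stepwise, and glycosylases and downstream repair enzymes can then replace the modified base with plain cytosine. TET1 and TET3 carry a CXXC zinc finger that binds CpG-rich DNA. TET2 lacks this finger, and the separate CXXC proteins CXXC4 and CXXC5 are known partners of it. TET2 and DNMT3A are among the genes most often mutated in myeloid leukaemia.

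TET2 peaks lay in or near 5 of the 10 genes in OPA1, namely TET1, TET3, MBD4, HMCES and CXXC5, and at 1 of the 10 in DMSO, DNMT3A. These lists differ in length: among the 891 highest-scoring OPA1 peaks, as many as the DMSO list held, 2 of the 10 genes kept a peak, and at a false discovery rate of at most 5% the counts were 4 in OPA1 and 0 in DMSO. No gene had a TET2 peak in both treatments. EGR1 peaks were at none of the 10 genes in either treatment. The TET2 gene itself, DNMT1, DNMT3B and TDG were without a peak throughout. By the same window, the share of protein-coding genes marked by TET2 was 10.7% in OPA1 and 5.76% in DMSO, and the share marked by EGR1 was 2.92% in OPA1 and 2.51% in DMSO. The 10 genes were longer than most, with a median of 54290 bp against 24115 bp for all protein-coding genes, which widens their windows, and they were listed with earlier results of these data known. The part of gene length in these counts was not tested.

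**Figure D1:**
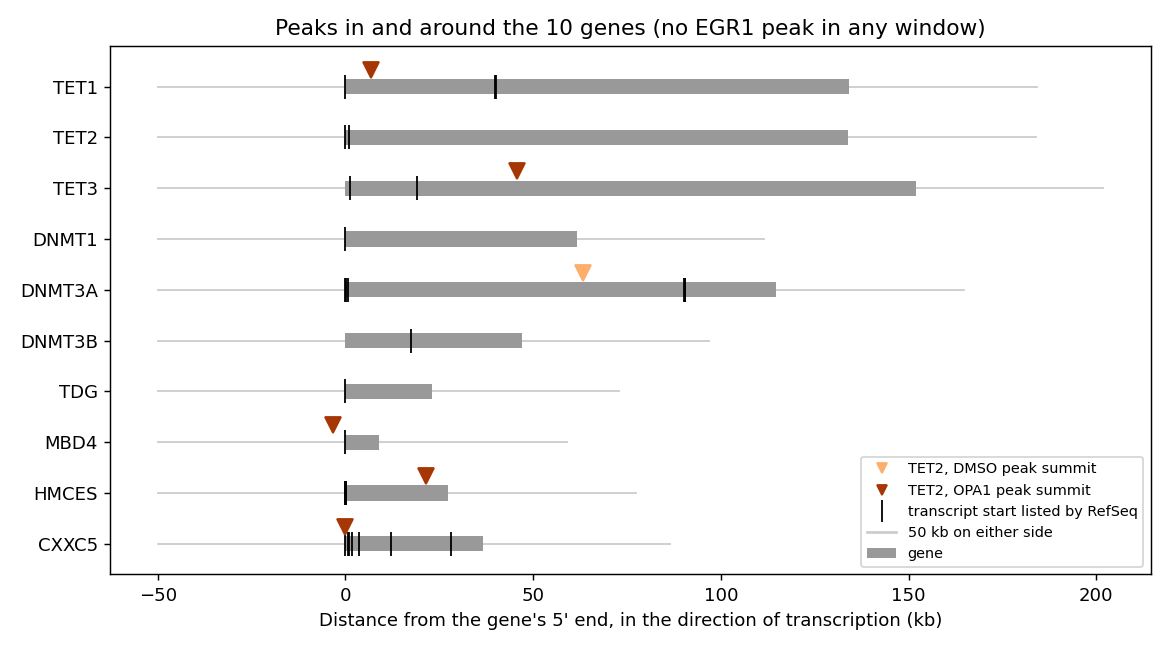
Position of every peak in or within 50 kb of the 10 genes. The horizontal axis is the distance in kb from the gene's 5' end in the direction of transcription, grey bars are genes, thin lines the windows, black ticks the transcript starts listed by RefSeq, and triangles peak summits coloured by list. The CXXC5, MBD4 and TET1 summits lie within 7 kb of a listed start, while the TET3, HMCES and DNMT3A summits lie more than 20 kb from any listed start of their gene.

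CXXC5 was the gene whose start was covered by a peak. CXXC5 encodes a CXXC zinc finger protein that binds unmethylated CpG and associates with TET2. The peak of the TET2 ChIP in OPA1 ran over 241 bp, from 139647073 to 139647313 on chromosome 5 (GRCh38), across the most upstream of 7 starts that RefSeq lists for the gene, at 139647299. Its summit, at 139647166, was 133 bp upstream of that start and 36716 bp from the other end of the gene. The peak held 12 tags (exact Poisson 95% interval 6.20 to 20.96, counting error only), the same as the median of its list, with a fold of 10.4 over the local background, a score of 63.55 and a false discovery rate of 2.28%. Fold, score (10 times the negative log10 of the p-value) and false discovery rate were given by the authors' caller and apply within 1 list. By score it ranked 614 of 1687.

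The bases under this peak are shown because it was the only peak among the 6 to reach a promoter window, that is 250 bp before to 50 bp after a listed start. The sequence is the RefSeq reference of GRCh38.p14, chr5:139647073-139647313, plus strand, with each CpG in capitals.
CXXC5 peak: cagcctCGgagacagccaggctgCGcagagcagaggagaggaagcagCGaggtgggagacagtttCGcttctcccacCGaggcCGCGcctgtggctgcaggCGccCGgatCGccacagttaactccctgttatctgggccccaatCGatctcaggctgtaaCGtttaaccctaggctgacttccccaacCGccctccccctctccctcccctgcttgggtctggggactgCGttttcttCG
These 241 bases held 15 CpG, or 6.22 per 100 bp, and 63.1% of them were G or C. The median promoter window of the RefSeq table held 14 CpG in 300 bp, or 4.67 per 100 bp. The window around this start held 20 CpG. Further into CXXC5, the windows at 139648349 and 139648951 held more, 37 and 39, and neither had a listed peak. In the TET2 ChIP in DMSO the nearest peak to CXXC5 was 658458 bp away, at HBEGF, a growth factor gene, with 8 tags. The nearest EGR1 peaks were 3840012 bp (DMSO) and 4127186 bp (OPA1) from the gene.

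Among the oxidising enzymes, TET1 had the highest-scoring of the 6 peaks. The peak of the TET2 ChIP in OPA1 ran over 279 bp on chromosome 10, from 68567050 to 68567328, with the summit at 68567194. TET1 spans 68560337 to 68694487, so the summit was inside the gene, 6857 bp after its first listed start and 127293 bp before its end. It held 15 tags (8.40 to 24.7), with a fold of 14.95, a score of 102.6 and a false discovery rate of 0.83%. Its rank by score was 121 of 1687, and by tags 446. The other starts listed for TET1 lay beyond the peak, at 68600268 and 68600474. The 3 promoter windows of TET1 were poor in CpG for this group of genes, with 10, 6 and 11. In DMSO the nearest peak of the TET2 ChIP was 642985 bp from TET1, in the hexokinase gene HK1, with 12 tags.

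TET3 had a peak of the same library in the gene but deeper and weaker. It ran from 74029255 to 74029505 on chromosome 2, over 251 bp, with the summit at 74029412. The summit lay 26720 bp after the nearer of 2 listed starts (74002692), 45781 bp from the lower and 106086 bp from the upper coordinate of the gene (73983631 to 74135498). It held 10 tags (4.80 to 18.4), with a fold of 10.0, a score of 51.17 and a false discovery rate of 5.26%, the only 1 of the 5 OPA1 peaks above 5%. By score it ranked 1539 of 1687, near the end of its list. A second OPA1 peak of the TET2 ChIP was just outside the window, 56699 bp from TET3 inside DGUOK, a deoxynucleoside kinase gene, with 11 tags and a false discovery rate of 5.44%. In DMSO the nearest peak was 159421 bp away in SLC4A5, with 8 tags.

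The TET2 gene, on chromosome 4 from 105145875 to 105279803, had no peak of any list in its window, including that of its own protein product. The nearest TET2 ChIP peaks were 284966 bp away in OPA1, with 13 tags, and 465709 bp away in DMSO, with 10 tags. An EGR1 peak in DMSO with 9 tags lay 261897 bp away, and the nearest EGR1 peak in OPA1 was 1420813 bp from the gene. The first 3 of these lay below the gene, on the side of CXXC4, and the DMSO peak of the TET2 ChIP had CXXC4 as its nearest protein-coding gene, at 185049 bp.

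The methyltransferase genes had a single peak. DNMT3A, a de novo methyltransferase, carried it in the TET2 ChIP in DMSO. That peak ran over 207 bp on chromosome 2, from 25279288 to 25279494, with the summit at 25279394. DNMT3A is read from its upper coordinate (25342590) to its lower (25227874), and the summit lay between its groups of starts, 63196 bp after the first and 27079 bp before the inner start at 25252315. It held 10 tags (4.80 to 18.4), with a fold of 11.5, a score of 51.39 and a false discovery rate of 9.28%, and ranked 770 of 891 by score. In OPA1 the nearest peak of the TET2 ChIP was 618317 bp away in KIF3C, with 13 tags. An EGR1 peak in OPA1 lay 225060 bp away in DTNB, with 8 tags, and in DMSO the nearest was 6895740 bp away.

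DNMT1, which copies methylation after replication, lay farthest of the 10 genes from a TET2 ChIP peak in OPA1. Its nearest TET2 ChIP peaks were 1098758 bp (DMSO, 15 tags) and 1482966 bp (OPA1, 16 tags) away, and its nearest EGR1 peaks were 2456650 bp (OPA1) and 13844929 bp (DMSO) away. DNMT3B, the other de novo enzyme, came closest to the window among the genes without a peak. The OPA1 peak of the TET2 ChIP in EFCAB8, 132162 bp from DNMT3B, held 16 tags, with a fold of 21.7 and a false discovery rate of 1.78%. The nearest EGR1 peaks were 1001714 bp (OPA1) and 1985469 bp (DMSO) from DNMT3B.

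Of the repair genes, MBD4 and HMCES had a peak and TDG had none. MBD4, a glycosylase with a methyl-CpG binding domain that removes mismatched thymine, is read from 129439948 down to 129430947 on chromosome 3. Its OPA1 peak of the TET2 ChIP was outside the gene, 3204 bp before its start, from 129443152 to 129443364, with the summit at 129443235. The peak lay in IFT122, a ciliary transport gene that begins at 129440224, and the summit was 3011 bp from the nearest listed start of IFT122 against 3287 bp from that of MBD4. The peak can therefore be assigned to either gene by position. It held 10 tags (4.80 to 18.4) over 213 bp, with a fold of 9.75, a score of 56.81 and a false discovery rate of 3.9%, at rank 948 of 1687.

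HMCES protects abasic sites in single-stranded DNA by binding them covalently, and was also described as a reader of oxidised methylcytosine. Its OPA1 peak of the TET2 ChIP lay on the same chromosome from 129300213 to 129300406, with the summit at 129300312. Of all listed starts, that of H1-10 was nearest to the summit, 15974 bp away. The summit was inside HMCES (129278832 to 129306186), 21318 bp after the last of 5 starts listed for HMCES and 5874 bp before its end. The peak held 8 tags (3.45 to 15.8), the lowest number in the list, over 194 bp. Its fold was 10.7, its score 53.27 and its false discovery rate 4.36%, at rank 1261 of 1687. The MBD4 and HMCES windows are close but did not share a peak: the HMCES peak was 130541 bp from MBD4. For both genes the nearest DMSO peak of the TET2 ChIP was the same peak in EEFSEC, 1272127 bp from MBD4 and 1120012 bp from HMCES, with 10 tags.

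TDG, the glycosylase that removes the most oxidised forms of methylcytosine, spans 103965872 to 103988874 on chromosome 12. The nearest TET2 ChIP peaks were at similar distances in both treatments, 437812 bp in DMSO (8 tags, in C12orf42) and 462081 bp in OPA1 (10 tags, beside CHST11). The nearest EGR1 peaks were 1068211 bp (DMSO) and 4814778 bp (OPA1) from TDG.

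**Figure D2:**
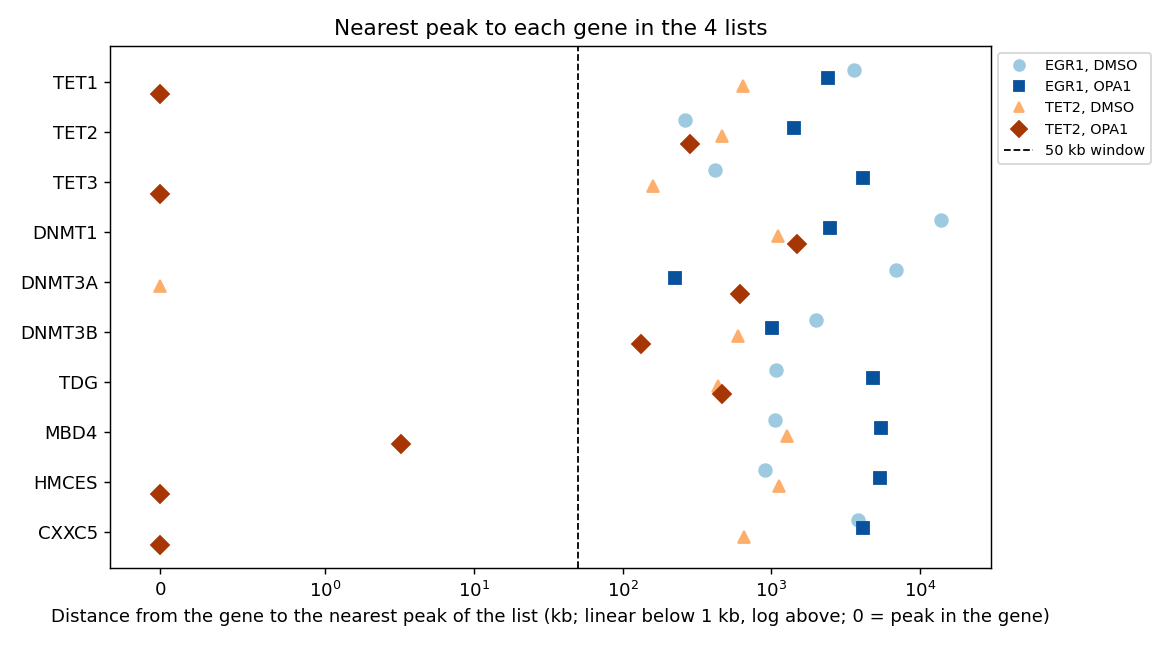
Distance from each of the 10 genes to the nearest peak of each list, in kb, on an axis that is linear below 1 kb and logarithmic above, with 0 for a peak in the gene. Symbols are offset vertically within a gene for visibility and each stands for 1 library. Left of the dashed line at 50 kb lie 5 OPA1 symbols and 1 DMSO symbol of the TET2 ChIP, and no EGR1 symbol.

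Across the 10 genes the median distance to the nearest TET2 ChIP peak was 67.7 kb in OPA1 and 620.5 kb in DMSO, where all protein-coding genes had medians of 484.8 and 986 kb. The OPA1 median of the 10 genes is the midpoint between 3.2 kb (MBD4) and 132.2 kb (DNMT3B). It largely repeats the count of 5 genes with a peak. The median distance to the nearest EGR1 peak was 3284 kb in OPA1 and 1527 kb in DMSO, against 2162 and 2590 kb for all protein-coding genes. The EGR1 medians of the 10 genes thus lay on opposite sides of the medians of all genes in the 2 treatments. Few EGR1 peaks had a false discovery rate of at most 5%, 4 of 515 in OPA1 and 2 of 513 in DMSO. The median rates were 22.06% and 19.1%, so the EGR1 distances rest mostly on weakly supported peaks. The 10 windows together covered 1.74 Mb and held 2.87 TET2 peaks per Mb in OPA1 and 0.575 in DMSO. The merged windows of all protein-coding genes covered 1870 Mb and held 0.677 and 0.341 per Mb. Those values rest on 5 peaks and 1 peak.

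As a group, the 5 OPA1 peaks were not strong for their list. They held 15, 12, 10, 10 and 8 tags, a median of 10 against 12 for all 1687 peaks, and 1 of the 5, at TET1, was above that median. By score 2 of the 5, TET1 and CXXC5, were above the list's median of 58.87, and by fold only TET1 was above the median of 11.1. For scale, the strongest peak of each list by score, at the promoter of the glycolytic gene PGK1, held 73 tags in the TET2 ChIP in OPA1 and 100 in DMSO. The DNMT3A peak in DMSO held 10 tags, against a median of 9 for its list. The Poisson intervals of all 6 peaks overlapped each other.

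**Figure D3:**
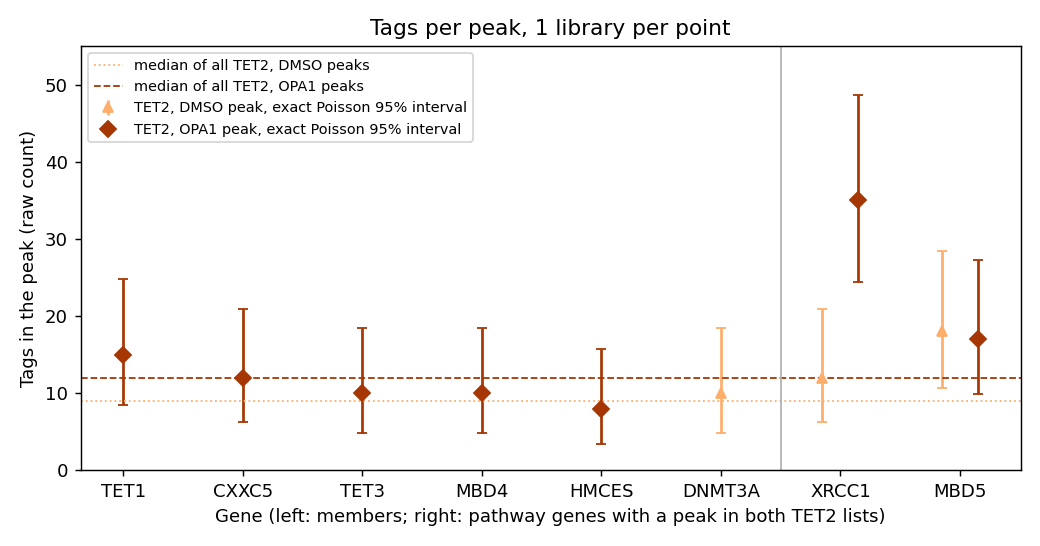
Raw tags in each of the 6 peaks at the 10 genes (left) and in the peaks found in both treatments near XRCC1 and MBD5 (right), 1 library per point, with exact Poisson 95% intervals. Dashed and dotted lines are the medians of all peaks of the TET2 ChIP in OPA1 and DMSO. The peaks at the 10 genes hold 8 to 15 tags and their intervals overlap, while the XRCC1 peak holds 12 tags in DMSO and 35 in OPA1.

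The lists differ in length, and the threshold does not mean the same in both. The TET3 peak in OPA1 and the DNMT3A peak in DMSO had nearly equal scores, 51.17 and 51.39, equal tags, and false discovery rates of 5.26% and 9.28%. A limit of 5% kept 4 of the 5 OPA1 peaks, where it kept 80.4% of the whole list, and dropped the DNMT3A peak, where it kept 19.3% of the list. Under that limit TET2 peaks marked 8.9% of protein-coding genes in OPA1 and 1.39% in DMSO. When the OPA1 list was shortened to its 891 highest-scoring peaks, the length of the DMSO list, TET1 and CXXC5 kept a peak and MBD4, HMCES and TET3 did not. The shortened list marked 6.27% of protein-coding genes.

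**Figure D4:**
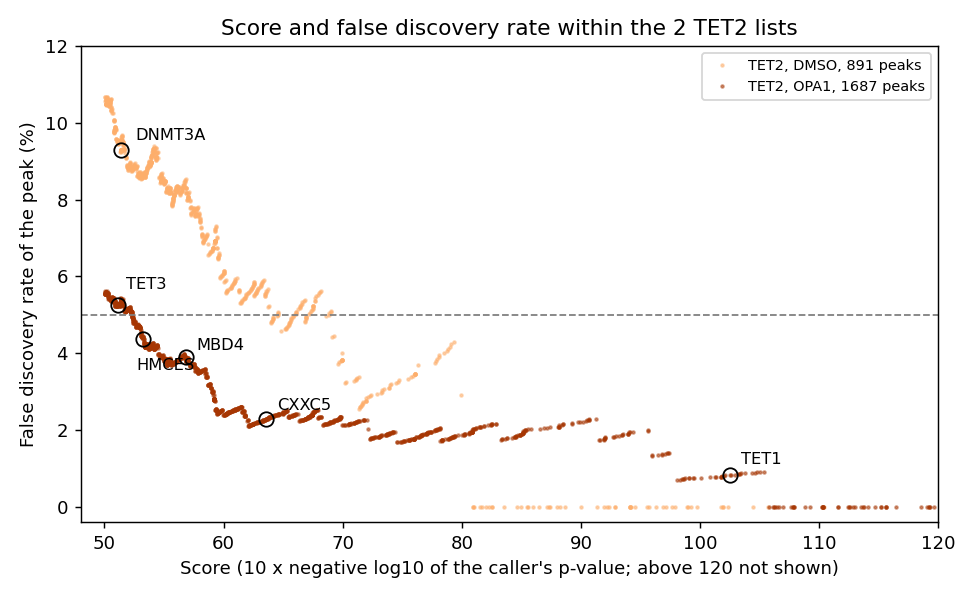
Caller's score and false discovery rate (in percent) for every peak of the TET2 ChIP in DMSO and in OPA1 with a score up to 120, 1 dot per peak, with the 6 peaks at the 10 genes circled and a dashed line at 5%. At equal scores near 51 the DNMT3A peak (9.28%) and the TET3 peak (5.26%) fall on different curves. Of the 6 circled peaks TET1 lies farthest to the right, at a score of 102.6, which ranked 121 of 1687 in its list.

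None of the 6 peaks overlapped a peak of another list. The nearest peak of another list was 265414 bp from the TET3 peak, 288156 bp from the DNMT3A peak and 695027 to 1068257 bp from the other 4. Of all TET2 peaks, 181 of 1687 in OPA1 (10.7%, Wilson 95% interval 9.34 to 12.3%) and 178 of 891 in DMSO (20%, 17.5 to 22.7%) overlapped a peak of another list by at least 1 bp. At those rates 5 OPA1 peaks and 1 DMSO peak without an overlap are close to the background.

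The EGR1 consensus was looked for in the promoter windows, since the study profiled EGR1 and no EGR1 peak was near these genes. RefSeq lists 29 starts for the 10 genes. The single start listed for DNMT3B, at 32779852, lies inside the gene, which begins at 32762385, so that end was not searched. The consensus GCGTGGGCG, on either strand, was in 1 of the 29 windows, that of TDG, and in 0.795% of all 35116 windows. The looser form GCGNGGGCG, which includes it, was in 4 of the 29 windows, at TDG, MBD4, DNMT3A and TET3, against 9.43% of all windows. By gene these were 4 of 10, against 11.2% of 27305 genes with a window. These shares by gene are not like for like, since the 10 genes hold 29 windows and the 27305 genes hold 35116. All 10 genes are protein-coding, while protein-coding genes have 22199 of the 35116 listed starts. The part of window number and gene type in the motif shares was not tested. The 10 genes have 1 to 7 windows each, and TDG and MBD4 have 1 each. The windows of the 10 genes were also richer in CpG, with a median of 26 against 14 in all windows and 21 of 29 above that median. Several of the 29 overlap, such as those of the 5 HMCES starts between 129278832 and 129278994. The same bases thus enter more than once, and the windows are not independent. The part of CpG content in the motif counts was not tested. The 4 matches are shown because EGR1 is the other factor profiled, on the strand of the gene, with the motif in capitals.
TDG: accctatCGCCCACGCgtccaccagc
MBD4: aagctgagtGCGAGGGCGccttgctccg
DNMT3A: gagggagggcGCGCGGGCGgcggcggcgg
TET3: ccctcggctgCGCCCCCGCctcccggctg
In TDG (chr12:103965622-103965647, plus strand) and TET3 (chr2:74002568-74002596, plus strand) the match reads on the opposite strand, centred 239 and 110 bp upstream of the start. In MBD4 (chr3:129440171-129440198, minus strand) the match was centred 237 bp upstream. IFT122 begins at 129440224, nearer to this match than the MBD4 start, so by position it can be assigned to either gene. In DNMT3A (chr2:25341907-25341935, minus strand) the match began at the start, 25341925, and read into the gene. A match is a description of these letters and not a binding site. The nearest EGR1 peaks to these 4 genes were 225060 bp away or more.

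A further 41 genes of the pathway, listed with earlier results known, give the context. They hold maintenance factors (UHRF1, UHRF2, HELLS), proteins with an MBD or MBD-like domain (MBD1, MBD2, MBD3, MBD5, MBD6), zinc-finger readers of methylated DNA (ZBTB4, ZBTB33, ZBTB38), CXXC proteins, the isocitrate dehydrogenases and repair enzymes, among others. In the TET2 ChIP 5 of the 41 (12.2%) had a peak in the window in OPA1, close to the 10.7% of all protein-coding genes, and 5 (12.2%) in DMSO, against 5.76%. For EGR1 they were 2 (4.88%) in OPA1, against 2.92%, and none in DMSO, against 2.51%. Within 5000 bp of a gene 1 of the 41 remained in each TET2 list, XRCC1, and 1 in the EGR1 list in OPA1, ZBTB38. The background within 5000 bp was 4.67% and 2.48% for TET2 in OPA1 and DMSO, and 1.31% and 1.28% for EGR1 in OPA1 and DMSO. All 5 OPA1 peaks and the DNMT3A peak of the 10 genes met the 5000 bp limit. In the 50000 bp window, a false discovery rate of at most 5% left 5 of the 41 with a TET2 peak in OPA1 and 1 in DMSO. The shares of all protein-coding genes were then 8.9% and 1.39%. The part of gene length in the counts of the 41 was not tested.

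XRCC1, the scaffold of base excision repair that acts after the glycosylases, had a peak in the gene in both treatments. In DMSO the TET2 ChIP peak ran from 43562801 to 43563038 on chromosome 19, with 12 tags (6.20 to 20.96). Its score was 54.77 and its false discovery rate 8.64%, above the 5% limit. In OPA1 the peak ran from 43562618 to 43563117, with 35 tags (24.4 to 48.7), a score of 142.6 and a false discovery rate of 0%. The summits were 12592 and 12576 bp after the start of XRCC1. These Poisson intervals did not overlap, but they cover counting error alone. The OPA1 peak was also longer, 500 against 238 bp, at 7 and 5.04 tags per 100 bp. TET2 peaks were longer in OPA1 across the whole list, with a median of 251 bp against 188 bp in DMSO. The caller's fragment size also differed, 76 bp in OPA1 and 64 bp in DMSO, and its part in peak length was not tested.

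MBD5, a gene of the MBD family, was the other gene with a shared peak, 29312 bp beyond the gene in OPA1 and 29451 bp in DMSO. The DMSO peak had 18 tags (10.7 to 28.4) and the OPA1 peak 17 (9.90 to 27.2), so the tags were nearly equal. The score, however, ranked 8 of 891 in DMSO (143.1) and 1251 of 1687 in OPA1 (53.36). The fold was 19.57 in DMSO and 9.23 in OPA1, and the false discovery rates were 0% and 4.24%. In OPA1 the peak was called over 385 bp in place of 189 bp. The part of peak length in these differences was not tested. KDM2A, a demethylase with a CXXC finger, had different peaks in the 2 treatments, 19522 bp away in GRK2 (DMSO) and 37528 bp away near RHOD (OPA1), each with 9 tags. The false discovery rates of these KDM2A peaks were 5.6% (DMSO) and 4.69% (OPA1).

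The remaining TET2 peaks by these genes were in 1 treatment. In OPA1 they were 7493 bp from UHRF2 (13 tags) and 49032 bp from ZBTB38, inside RASA2 (20 tags), with false discovery rates of 3.73% and 2.09%. In DMSO they were 36441 bp from GADD45A (8 tags) and 23172 bp from NEIL2, inside GATA4 (9 tags), with rates of 8.37% and 8.64%. EGR1 peaks in OPA1 lay in ZBTB38, a reader of methylated DNA, with 10 tags and 6399 bp from a listed start, and 31180 bp from the glycosylase gene SMUG1, with 9 tags. Their false discovery rates were 23.5% and 21.25%. The EGR1 and TET2 peaks at ZBTB38 in OPA1 were 123798 bp apart.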

How the data were processed

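ChIP-seq libraries for EGR1 and TET2 in THP-1 cells under DMSO or OPA1 were analysed from 4 deposited peak lists, 1 per library. MACS 1.4.2 had called each list on 1 library against the input of its treatment, at a p-value cutoff of 1e-05, keeping 1 tag per position, per the file headers. The submitters' processing notes add Bowtie2 2.2.6, HOMER and the build GRCh38. The tags of a peak are a deposited raw count. The deposited score is the negative log10 of a p-value from the caller, multiplied by 10. The deposited fold is a ratio over local background, and the deposited false discovery rate is in percent. Peak length and summit offset are in bp.

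Gene bounds and promoter windows came from RefSeq tables of GRCh38.p14. All 10 genes and all 41 further genes matched by symbol among the gene bounds. The promoter windows were incomplete: they held no start for GADD45A, SMUG1 or NEIL2 and no window on chromosome 8. The tables used here give no exons, so a peak is placed as in or outside a gene. A peak counted when any base was in a gene or within 50000 bp. Strand was read from the promoter table. Distances to starts use the summit. Background shares of genes with a peak were computed over all 20037 protein-coding genes. Background shares of the motifs were computed over all 35116 windows and their 27305 genes, whether protein-coding or not. Scripts used Python 3.11.15, pandas 2.3.3 and SciPy 1.17.1, and distances and windows were tested on simulated peaks. The genes, both lists and the rules were chosen with earlier results of these data known. All 10 genes, the nearest peaks of each, and every further pathway gene with a peak are named. No test was run, as each group had 1 library. Inputs entered only through the peak calls. Alternatives were windows of 5000 and 100000 bp, summits in place of any base, a false discovery rate of at most 5%, stricter overlap and, added after seeing the data, an OPA1 list cut to the length of the DMSO list.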

Additional observations from a re-analysis of the deposited data

How the results depend on the processing

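No paired analysis was possible because each group had 1 library and no test was run. Of 45 alternative values, 35 were within 1.5 times of the value given or equal to it. This number does not measure stability, since many of these values could not move. A count of 0 stays 0 under a smaller window, the summit rule, the 5% limit or the 50% overlap rule. Counts of genes with a peak and of peaks near them also largely repeat each other. The window of 5000 or 100000 bp and the summit rule left the numbers of the 10 genes with a peak as they were in all 4 lists. The window of 100000 bp added 1 peak, near TET3. With a false discovery rate of at most 5%, the genes with a TET2 peak and the peaks near them were 0 in DMSO, in place of 1. In the OPA1 TET2 list cut to 891 peaks, genes with a peak and peaks were 2 each, in place of 5. Of the 41 further genes, a window of 5000 bp left 1 in place of 2 for EGR1 in OPA1, 1 in place of 5 for TET2 in DMSO and 1 in place of 5 for TET2 in OPA1. For those genes the 5% limit left 0 for EGR1 in OPA1 and 1 for TET2 in DMSO, and the shortened OPA1 TET2 list left 2. Fewer peaks enter under the limit and the shortened list by construction. No peak of the 10 genes overlapped another list at 1 bp, at 50% of the shorter peak or with summits within 500 bp. The peaks of the 10 genes held 8 to 15 tags each, and no tag count of the same place in the other treatment was used here.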
